A study of Homo sapiens with 6 samples.

Results

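The genes described here carry a symbol made of ZNF and a number below 300, the oldest numbered names in the human zinc finger family. They were chosen by name alone: every probe set whose array annotation gives 1 symbol of that form was taken, with 1 symbol left out by the rule. This gave 124 probe sets for 95 genes, out of 22277 probe sets on the array and 11963 genes with a probe set of 1 symbol. Of the 95 genes 37 lie on chromosome 19, with 44 probe sets, and 58 lie on other chromosomes, with 80 probe sets. Expression was measured in A-498, an established human renal cell carcinoma line. The treated group was 3 cultures kept for 120 h in medium with 1000 µM zebularine, a cytidine analogue that inhibits DNA methyltransferases, and the other group was 3 untreated cultures kept for the same time. All cultures were monolayers of this 1 line without any genetic change named in the labels, and 1 treated and 1 untreated array share each replicate number and experiment name.

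Most proteins with such a name bind DNA through tandem C2H2 fingers, short loops that each hold a zinc ion between paired cysteines and histidines. Many also carry a KRAB domain, which recruits the co-repressor TRIM28 and, through it, the histone methyltransferase SETDB1 and heterochromatin proteins, so that the bound site is silenced. The human genes with a KRAB domain are concentrated in clusters on chromosome 19 that grew by tandem duplication, and many of their products bind transposable elements. A smaller number of the named proteins have a SCAN domain or no effector domain, and a few, such as the LIM protein ZNF185, are not C2H2 proteins at all.

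The arrays report 1 signal per probe set, in arbitrary units, and array medians ran from 126 to 134 on the treated and from 118 to 141 on the untreated arrays. The median over the 124 probe sets was 112 to 122 on the treated arrays, against 86.9, 116 and 122 on untreated arrays 3, 1 and 2. Both arrays of replicate 3 had lower maxima, 28720 treated and 31176 untreated, against 66290 to 71174 on the other 4. Of 11 markers of renal carcinoma cells 9 were on the array and 6 reached the level used for testing, PAX8, PAX2, VIM, KRT8, KRT18 and CDH6, while LRP2, CDH16 and EPCAM did not. The summed signal of the 9 was 37325 to 55630 on treated and 43206 to 59993 on untreated arrays. CDH6, a cadherin of renal tubules, fell: its brightest probe set read 174.5, 102.8 and 209.1 treated and 1407.4, 2209.0 and 584.4 untreated, a log2 difference of -2.85 ± 0.42 (limma, adjusted p = 0.0206). KRT18, an epithelial keratin, had lower treated values in all 3 replicates, with overlapping groups (-0.34 ± 0.25, limma, adjusted p = 0.616). KRT8 was likewise lower in all 3 (-0.38 ± 0.27), while VIM was higher in all 3 (0.21 ± 0.27), both with overlapping groups. PAX2 differed by -0.09 ± 0.35, and the tested probe sets of PAX8 ran from -1.56 to 0.34. The part of these marker differences in the members' values was not tested. Of 10 measured markers of blood, endothelial, muscle and liver cells only AFP reached the level used for testing. The summed signal of these 10 was 389 to 550 on treated and 387 to 517 on untreated arrays.

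No gene of this family was called by the main test, which does not pair the arrays by replicate number. A gene that was not called may still have changed. Testing required a signal of 78.6 or more, the 40th percentile over the arrays, on 3 or more arrays, and values were compared as log2(signal + 16.34), which understates the change of dim genes. Of the 124 probe sets 80 were tested, for 66 genes, 21 on chromosome 19 and 45 elsewhere. With limma and Benjamini-Hochberg adjustment across the 13545 probe sets that were tested, 0 of the 80 had an adjusted p under 0.05, where 0.62% of all tested probe sets were. The smallest adjusted p of a member was 0.26. At an unadjusted p under 0.05 there were 7 of the 80, all of them higher after zebularine, against 12.6% of all tested probe sets in either direction and 5.93% in that direction. With the replicate number as a block, 1 of the 80 was called, a probe set of ZNF207 that was higher after zebularine, against 4.22% of all tested probe sets in either direction and 1.9% higher. The treated and untreated signals did not overlap for 10 of the 80 probe sets that were higher and 1 that was lower, against 8.71% and 8.88% of all tested probe sets. None of the 23 tested probe sets on chromosome 19 was called by limma in either fit, with 2 of them at an unadjusted p under 0.05.

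ZNF207 encodes BuGZ, a zinc finger protein that binds microtubules and the checkpoint protein BUB3 at kinetochores. Its probe set read 4738.5, 7126.7 and 4984.5 on treated arrays 1, 2 and 3 and 2215.5, 5041.5 and 3429.0 on untreated arrays 1, 2 and 3. The treated array was the higher one in each replicate, but the groups overlapped, because untreated array 2 lay above treated arrays 1 and 3. The fitted log2 difference was 0.71 ± 0.31 (standard error; limma, adjusted p = 0.371), and with the replicate block it was 0.71 ± 0.18 (limma, adjusted p = 0.0443), so it passed in the second fit only. That call ended without replicate 1 (0.52; limma, adjusted p = 0.244) and without replicate 3 (0.79; limma, adjusted p = 0.0622), and held without replicate 2 (0.81; limma, adjusted p = 0.0283). These blocked fits without a replicate were added after the data were seen. In the unblocked fit the difference was 0.41 without untreated array 1. The second probe set of ZNF207 had a mean of 3024 ± 295 treated and 1950 ± 734 untreated (SD, n = 3 each), a difference of 0.70 ± 0.30 (limma adjusted p of 0.361 unblocked, 0.121 blocked). Both probe sets are of a type that can bind other transcripts.

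Promoter sequence was looked up because the drug inhibits DNA methylation, which acts at CG dinucleotides; methylation itself was not measured here. RefSeq promoters of build GRCh38.p14, from 250 bases before to 50 bases after a gene's start, were matched for 83 of the 95 genes. The median number of CG per 300 bases, averaged over a gene's starts, was 18.5 for the 32 matched genes on chromosome 19 and 22 for the 51 elsewhere. These members include genes too dim to test. The median was 25.7 for all 6593 matched tested genes and 14 for all 27305 genes in the table. CG reads the same on both strands. It occurred in 100% of members' promoters, in 99.8% of those of all tested genes and in 96.2% of those of all 27305 genes in the table, and at least 10 of them in 96.9% of the chromosome 19 members, 94.1% of the others, 92.1% of all tested genes and 57.4% of all genes in the table. The promoters of 3 genes are shown with each CG in capitals: ZNF207 as the member called with the block, and ZNF175 and ZNF23 as the members with the smallest adjusted p on chromosome 19 and elsewhere. They hold 21, 22 and 22 CG, and lie at chr17:32349907-32350206 on the plus strand, chr19:51571033-51571332 on the plus strand and chr16:71462198-71462497 on the minus strand.
ZNF207: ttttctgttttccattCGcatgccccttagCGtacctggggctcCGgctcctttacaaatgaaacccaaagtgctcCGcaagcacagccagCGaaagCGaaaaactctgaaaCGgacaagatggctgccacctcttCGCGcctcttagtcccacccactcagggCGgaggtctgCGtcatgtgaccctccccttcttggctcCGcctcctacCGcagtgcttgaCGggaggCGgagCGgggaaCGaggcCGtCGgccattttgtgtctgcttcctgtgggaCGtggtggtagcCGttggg
ZNF175: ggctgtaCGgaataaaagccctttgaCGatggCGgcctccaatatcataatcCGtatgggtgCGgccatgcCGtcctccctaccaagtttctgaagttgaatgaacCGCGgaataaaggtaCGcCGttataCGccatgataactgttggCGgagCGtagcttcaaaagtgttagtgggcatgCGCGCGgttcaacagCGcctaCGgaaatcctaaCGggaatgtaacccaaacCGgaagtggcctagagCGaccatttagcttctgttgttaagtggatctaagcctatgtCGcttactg
ZNF23: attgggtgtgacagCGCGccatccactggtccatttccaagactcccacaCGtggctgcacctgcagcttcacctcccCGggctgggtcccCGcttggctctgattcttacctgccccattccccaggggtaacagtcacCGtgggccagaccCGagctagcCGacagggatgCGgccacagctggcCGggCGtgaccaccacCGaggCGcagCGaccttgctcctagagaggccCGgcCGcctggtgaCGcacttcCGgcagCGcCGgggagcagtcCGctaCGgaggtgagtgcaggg

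On chromosome 19 the fitted differences of the tested genes lay mostly above 0. Of 21 genes 17 had a positive difference, and the median was 0.29 on the log2 scale, with quartiles at 0.11 and 0.63. The median was 0.40, 0.12 and 0.24 in replicates 1, 2 and 3. It was 0.16 without untreated array 3, 0.19 without treated array 1 and 0.48 without replicate 2, 0.13 under a stricter filter, 0.12 without _x_at and _s_at probe sets and 0.21 over all 37 genes with no filter. On other chromosomes 24 of 45 genes had a positive difference, and the median was 0.05, with medians of 0.17, -0.15 and -0.02 in the 3 replicates. Over all 7938 tested genes the median was -0.01 and 49.3% were positive. The 450 other tested genes of chromosome 19 had a median of -0.17, with 35.3% positive, and the 30 genes of chromosome 19 with a ZNF number of 300 or more had a median of 0.05, with 16 positive. These medians describe the tested genes and carry no test, and 16 of the 37 members on chromosome 19 and 13 of the 58 elsewhere had no tested probe set.

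**Figure D1:**
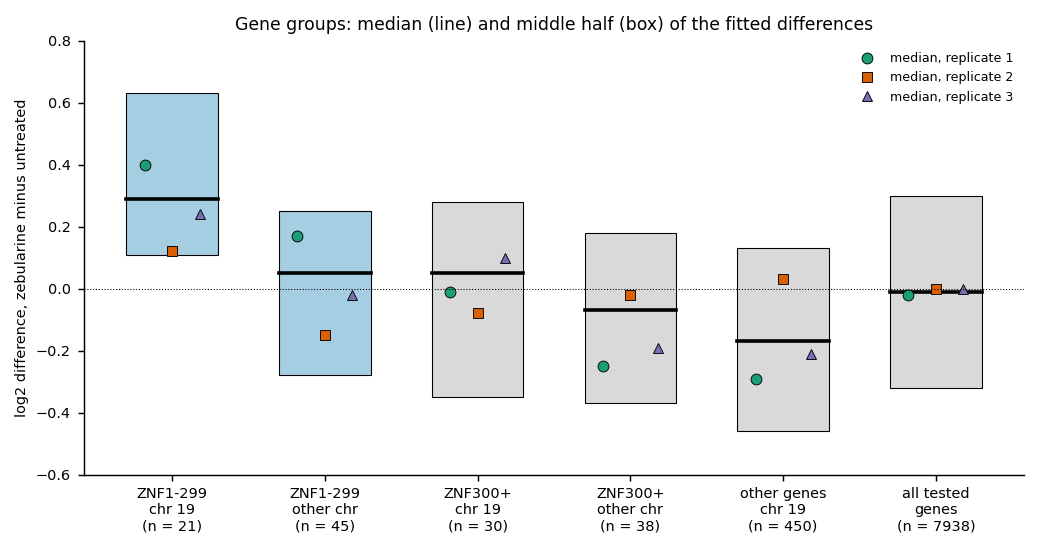
Log2 difference of zebularine minus untreated (vertical axis) for 6 groups of tested genes, the leftmost pair being the genes described here and ZNF300+ those with higher numbers. Lines are medians, boxes run between quartiles, and symbols the medians in replicates 1, 2 and 3; the members on chromosome 19 have a median of 0.29 (0.16 without untreated array 3), against -0.01 for all tested genes.

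Within that group 7 of the 21 genes were higher on the treated array in all 3 replicates and 0 were lower in all 3, against 21.5% and 22% of all tested genes. The treated and untreated signals did not overlap for 4 of the 21, all higher, against 9.32% of all tested genes. These 4 were ZNF211, ZNF175, ZNF112 and ZNF93. ZNF112 passed the filter through its treated arrays alone, so it could enter these counts only by being higher. ZNF211, ZNF224, ZNF85 and ZNF43 reached the level on all 3 treated arrays but on only 1 untreated array each. They too would not have passed without their treated arrays (ZNF85 and ZNF43 are named after their values were seen). ZNF175 fell below the level on untreated array 2, at 58.8, so it would not have passed on its untreated arrays alone either. The counts are a description and support no direction. Without ZNF112 alone, 6 of 20 genes were higher in all 3 replicates, 3 of 20 did not overlap and the median difference was 0.25. The genes with 1 untreated array at the level, and ZNF175, stay in these values. Over all 37 genes with no filter, 12 were higher and 3 lower in all 3 replicates, and the groups did not overlap for 5, all higher. No share over all genes without the filter is given here. Of all 8670 probe sets too dim to test, 16.4% were higher and 9.7% lower in all 3 replicates. Their groups did not overlap for 6.74% that were higher and 3.45% that were lower. On other chromosomes 7 of 45 genes were higher in all 3 replicates and 6 lower in all 3, and the groups did not overlap for 3 genes that were higher (ZNF23, ZNF195 and ZNF79) and 1 that was lower (ZNF232; it and ZNF79 are named after their values were seen), the last against 8.83% of all tested genes.

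**Figure D2:**
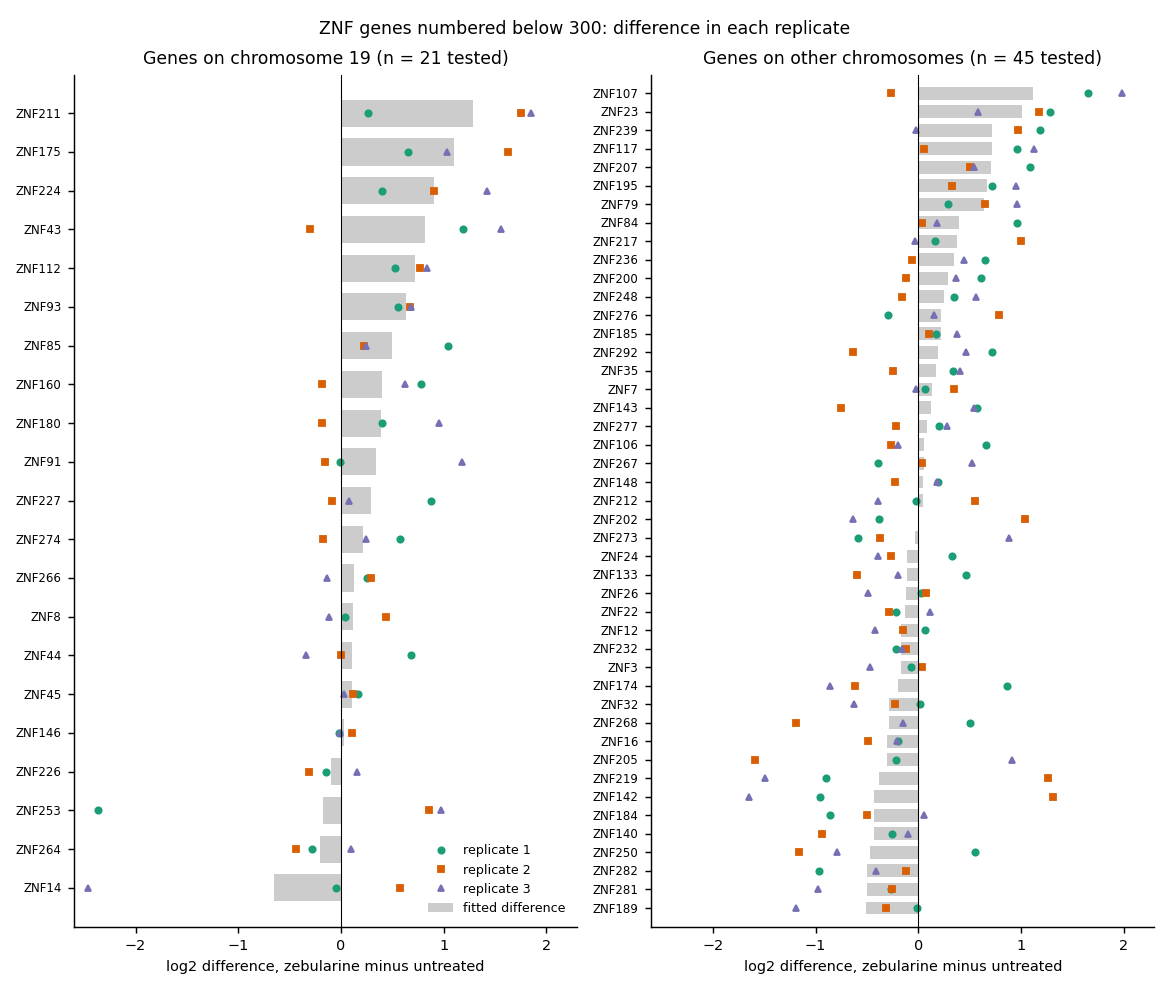
Log2 difference of zebularine minus untreated (horizontal axis) for each tested gene, 21 on chromosome 19 and 45 elsewhere, sorted by the fitted difference (bars). Symbols are replicates 1, 2 and 3, and for many genes they lie on both sides of 0.

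ZNF211, a zinc finger gene of the distal cluster of the long arm, had the largest difference on chromosome 19. It read 111.3, 110.6 and 158.8 on treated arrays 1, 2 and 3 and 90.0, 21.3 and 32.1 on untreated arrays 1, 2 and 3. All treated values lay above all untreated ones, by little in replicate 1. The difference was 1.29 ± 0.56 (limma, adjusted p = 0.368). As 2 of the untreated values lay below the testing level, the gene passed the filter only with its treated arrays. The size of its difference also depends on the pseudocount, from 0.80 to 1.66 over the pseudocounts tried.

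ZNF175, a KRAB zinc finger gene, read 259.9, 216.3 and 280.7 treated and 160.0, 58.8 and 128.7 untreated in replicates 1, 2 and 3. The groups did not overlap, and the difference was 1.10 ± 0.39 (limma adjusted p of 0.26 unblocked, 0.0817 blocked). Untreated array 2 lay below the testing level, so ZNF175 passed the filter only with its treated arrays. ZNF112 read 110.3, 101.9 and 123.3 treated and 71.1, 52.8 and 61.5 untreated. All its untreated values lie below the testing level, so its differences of 0.53, 0.77 and 0.84 are given without a test. ZNF224, a KRAB protein known as a repressor of the aldolase A gene, read 133.3, 113.8 and 81.6 treated and 96.7, 52.9 and 20.2 untreated at its brighter tested probe set. That is higher in each replicate with overlapping groups, a difference of 0.91 ± 0.57 (limma, adjusted p = 0.545) and 0.49 without untreated array 3, while its other tested probe set differed by -0.34 ± 0.64 (limma, adjusted p = 0.87).

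**Figure D3:**
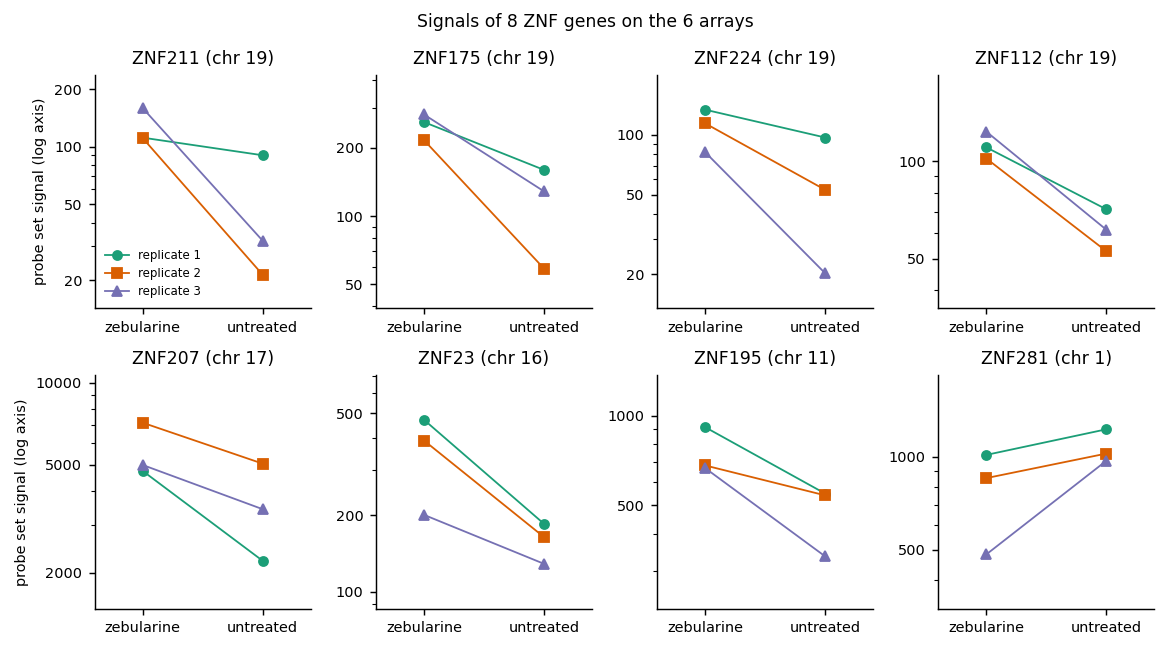
Probe set signal on a log axis for 8 genes, with zebularine at the left and untreated at the right of each panel and a line joining the 2 arrays of each replicate. Zebularine is the higher end of all 3 lines for 7 genes and the lower end of all 3 for ZNF281.

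The brightest tested probe sets on chromosome 19 belonged to ZNF160, ZNF146 and ZNF91. ZNF91, which binds and represses SVA retrotransposons, read 616.2, 322.5 and 613.1 treated and 622.1, 361.1 and 261.0 untreated. Its difference of 0.34 ± 0.36 (limma, adjusted p = 0.741) came from replicate 3, the 1 replicate in which the treated array was higher. ZNF160, a KRAB gene, averaged 2540 ± 1098 treated and 1893 ± 640 untreated, a difference of 0.40 ± 0.34 (limma, adjusted p = 0.668), lower on the treated array in replicate 2. It was 0.07 without treated array 1 and 0.09 without untreated array 3. ZNF146, which consists almost wholly of fingers, averaged 1290 ± 310 treated and 1257 ± 237 untreated (SD, n = 3 each), a difference of 0.03 ± 0.26. 3 further genes are named after their values were seen. ZNF93, whose product represses LINE-1 elements, read 190.1, 243.7 and 218.1 treated and 124.9, 147.2 and 129.7 untreated, with differences of 0.55, 0.67 and 0.68 and a fitted one of 0.63 ± 0.32 (limma, adjusted p = 0.447). ZNF274, which recruits SETDB1 to the 3′ ends of zinc finger genes, differed by 0.21 ± 0.28. ZNF14 had the lowest difference on chromosome 19, -0.65 ± 0.60, set by treated array 3 at 18.7 against 166.9 and 174.5 on the other treated arrays and 107.0 to 181.7 on the untreated ones.

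Along chromosome 19 the members fall into 8 neighbourhoods if members up to 25 protein-coding genes apart are joined, a rule set after the values were seen. The neighbourhood from ZNF14 to ZNF254 held 8 members, of which 6 were tested, with a median difference of 0.42 and 4 positive. The one from ZNF45 to ZNF180 held 14 members, of which 6 were tested, with a median of 0.34 and 5 positive. The one from ZNF264 to ZNF132 held 8 members, of which 4 were tested, with a median of 0.17 and 3 positive. The other 5 neighbourhoods had 1 tested gene each. Neighbouring genes can be duplicates of each other, which was not examined here, so they are not taken as independent. In the largest neighbourhood differences ran from -0.10 at ZNF226, named after its values were seen, to 0.91 at ZNF224.

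**Figure D4:**
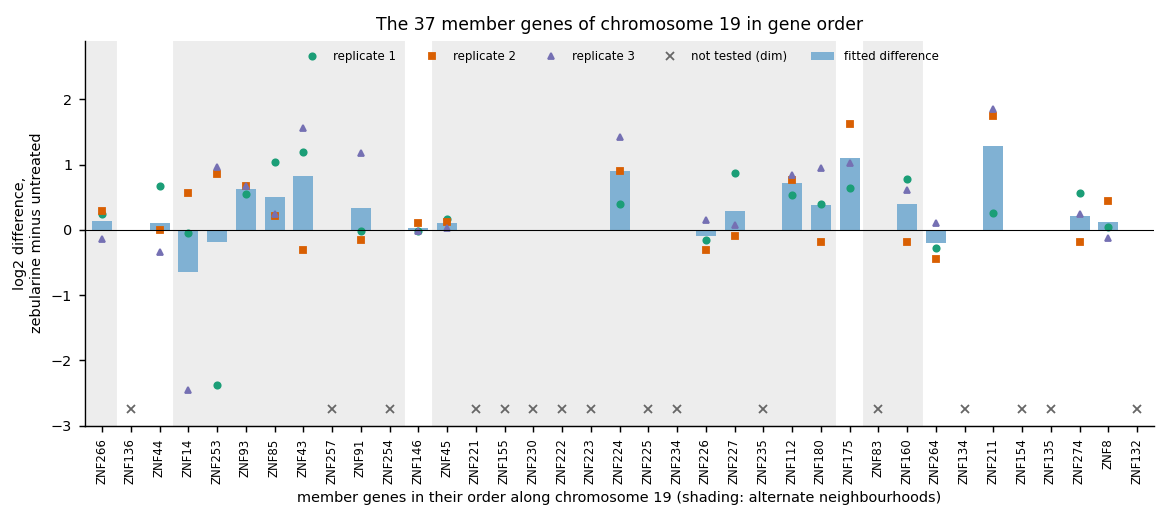
Log2 difference of zebularine minus untreated (vertical axis) for the 37 members on chromosome 19 in gene order (horizontal axis). Bars are fitted differences, symbols the 3 replicates, crosses genes too dim to test and shading alternate neighbourhoods; the positive differences are spread over several neighbourhoods.

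On other chromosomes the highest differences were those of ZNF107 and ZNF23. ZNF23, on chromosome 16, read 472.1, 391.6 and 200.3 treated and 184.8, 164.0 and 128.8 untreated. The groups did not overlap, and the difference was 1.01 ± 0.35 (limma adjusted p of 0.26 unblocked, 0.0636 blocked). ZNF195, a KRAB gene on chromosome 11, read 914.5, 680.2 and 666.2 treated and 547.1, 539.6 and 336.5 untreated, again without overlap, a difference of 0.67 ± 0.28 (limma, adjusted p = 0.355). ZNF117 on chromosome 7, which shares transcripts with the endogenous retrovirus locus ERV3-1, read 372.7, 179.1 and 155.7 treated and 183.5, 170.7 and 62.0 untreated, a difference of 0.72 ± 0.45 (limma, adjusted p = 0.549), close to 0 in replicate 2. It was 0.29 without untreated array 3 and 0.36 without treated array 1. ZNF107, named after its values were seen, read 297.5, 127.0 and 314.9 treated and 83.8, 156.8 and 67.8 untreated, and differed by 1.12 ± 0.44 (limma, adjusted p = 0.311). Its replicate 2 ran the other way, at -0.27. With the replicate block on all arrays the adjusted p was 0.162 (limma). Without replicate 2 the blocked fit, a setting added after the data were seen, gave 1.81. Leaving out the replicate that ran the other way raises the difference by construction, so no support is drawn from that fit. The probe set of ZNF107 is of a type that can bind other transcripts. Untreated array 3 lay below the testing level for ZNF107 and ZNF117, so both passed the filter only with their treated arrays.

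The lowest differences with 1 sign in all replicates were between -0.51 and -0.43. ZNF281, a transcription factor linked to pluripotency and epithelial-mesenchymal transition, read 1013.3, 852.5 and 483.2 treated and 1226.1, 1023.4 and 970.1 untreated. It was lower in each replicate, with overlapping groups, a difference of -0.50 ± 0.30 (limma, adjusted p = 0.522), and -0.20 without treated array 3. ZNF189 on chromosome 9 differed by -0.51 ± 0.33, and by -0.17 without treated array 3. ZNF282, first described as a repressor at the long terminal repeat of HTLV-1, differed by -0.50 ± 0.39, by -0.24 without untreated array 1, -0.29 without treated array 2 and -0.90 without untreated array 2. ZNF140, a KRAB gene, differed by -0.43 ± 0.32, and by -0.13 without treated array 2. The limma adjusted p of these was 0.566, 0.634 and 0.619. Of members with known general roles, named after their values were seen, ZNF143, an activator of small nuclear RNA genes, differed by 0.12 ± 0.34. ZNF148, the GC-box factor ZBP-89, differed by 0.05 ± 0.26, and ZNF217, an oncogene amplified in breast cancer, by 0.38 ± 0.36 with replicate 2 alone well above 0. ZNF12, a KRAB gene, averaged 946 ± 214 treated and 1050 ± 102 untreated, a difference of -0.17 ± 0.25.

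Different probe sets of 1 gene did not always share a sign. Of 12 genes with more than 1 tested probe set, 6 had differences of the same sign and 6 of opposite signs. The share over all genes with several tested probe sets is not given here, and some of these differences were smaller than their standard errors. ZNF174, a SCAN domain gene on chromosome 16, had 3 tested probe sets, at -0.20 ± 0.37 for the brightest and -0.87 ± 0.58 and 0.16 ± 0.47 for the others (limma, adjusted p = 0.864, 0.579 and 0.916). Its brightest probe set read 254.9, 141.6 and 129.0 treated and 132.9, 226.2 and 247.1 untreated, higher in replicate 1 and lower in the other two. The probe set types also differed. Probe sets ending in _x_at, which can bind related transcripts, had a median difference of 0.45 over 6 on chromosome 19 and 0.59 over 6 elsewhere. Over all 1631 of that type it was -0.01. Among them were the only tested probe sets of ZNF93, ZNF160, ZNF85 and ZNF43 on chromosome 19 and of ZNF107 and ZNF117 elsewhere. So were those of ZNF253 (-0.18) and ZNF44 (0.11) on chromosome 19 and of ZNF273 (-0.03) and ZNF276 (0.22) elsewhere. These last genes are named after their values were seen. Probe sets ending in neither _x_at nor _s_at had a median of 0.11 over 10 on chromosome 19 and -0.03 over 36 elsewhere. With those alone the gene medians were 0.12 for 9 genes and -0.11 for 31 genes, so the median on chromosome 19 was less than its value over all types and that of the other chromosomes changed sign. The part of cross-hybridisation in these values was not tested.

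**Figure D5:**
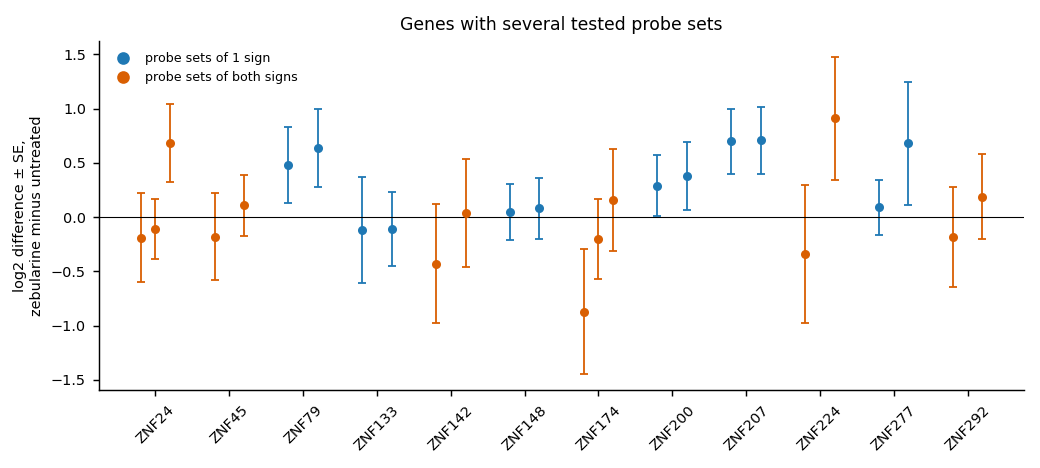
Log2 difference of zebularine minus untreated with its standard error (vertical axis) for each tested probe set of the 12 genes that have more than 1. Orange marks the 6 genes whose probe sets lie on both sides of 0.

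The remaining 44 probe sets were too dim to test, and 29 genes, 16 on chromosome 19 and 13 elsewhere, had no tested probe set. Their signals ran from 1.2 to 155.9. The groups did not overlap for 5 of the 44, all higher after zebularine, against 6.74% of all 8670 dim probe sets, and for 0 that were lower, against 3.45%. These 5, named after their values were seen, were probe sets of ZNF41, ZNF124, ZNF154, ZNF93 and ZNF79. ZNF41 on chromosome X read 25.6, 33.5 and 48.3 treated and 6.2, 8.4 and 7.3 untreated. ZNF154 on chromosome 19 read 86.0, 60.4 and 66.5 treated and 22.6, 49.7 and 27.0 untreated at one probe set, while its other read 4.5, 27.2 and 12.1 treated and 11.0, 120.6 and 4.6 untreated. Signals this low are noisy on this platform and were not tested. ZNF10, also named after its values were seen, from which the KRAB domain used in engineered repressors was taken, was too dim as well, at 38.1 to 39.9 treated and 11.2 to 52.2 untreated.

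The genes through which KRAB proteins act were read beside them, from a list of the co-repressor complex, heterochromatin proteins, histone methyltransferases and deacetylases. Of 25 tested genes 0 were called by limma without the block or with it, against 0.642% and 4.45% of all tested genes. At an unadjusted p under 0.05 there were 5, against 13.1% of all tested genes, and the median difference was 0.06, with 14 positive and 11 negative. The treated and untreated signals did not overlap for 2 genes that were higher and 6 that were lower, against 9.32% and 8.83% of all tested genes. TRIM28, the KRAB co-repressor, read 1843.3, 2208.3 and 2318.1 treated and 4180.1, 2855.9 and 3241.5 untreated. The groups did not overlap, and the difference was -0.67 ± 0.25 (limma adjusted p of 0.276 unblocked, 0.0846 blocked). SETDB1 read 225.5, 196.0 and 217.3 treated and 350.0, 290.1 and 435.5 untreated, a difference of -0.69 ± 0.28 (limma adjusted p of 0.34 unblocked, 0.148 blocked), while its second probe set differed by 0.08 ± 0.34. Without replicate 2 the blocked fit, a setting added after the data were seen, called 2 genes of the list. The share of all tested probe sets called in that fit is not given here. The 2 genes were TRIM28 at -0.83 and the heterochromatin protein gene CBX5 at -1.12 (limma, adjusted p = 0.0359 and 0.0129). With all arrays that probe set of CBX5, named after its values were seen, differed by -0.85 ± 0.29 (limma adjusted p of 0.256 unblocked, 0.0657 blocked), and its second probe set by -0.06 ± 0.32.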

How the data were processed

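Total RNA of 3 zebularine-treated and 3 untreated A-498 cultures was hybridised to 1 Affymetrix array each. The authors deposited 1 linear intensity per probe set and array, made with MAS5 per the submitters' processing notes; its version is not given in the sources read. The mean of the values left after trimming 2% at each end was 494.7 to 496.8 on every array. Titles of the samples gave the groups and the numbers of the replicates, described there as biological.

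After removal of 62 control probe sets 22215 remained, and 13545 passed the filter. Chromosomes came from RefSeq by Entrez number, and no symbol of a member changed. A gene was represented by its tested probe set of highest mean signal. Values were taken as log2(signal + 16.34), with a pseudocount of 1/8 of the overall median, and tested by lmFit and eBayes with a trend (limma 3.58.1, R 4.3.3, two-sided), adjusted over all tested probe sets. All p-values refer to cultures of 1 line. Deviations from the group mean correlated between arrays of 1 number (0.323, 0.21 and 0.272), and these arrays carry 1 experiment name, so the numbers were taken to pair the arrays. No 2 arrays had more than 0.198% of probe sets with exactly the same value as deposited, to 1 decimal. The fit was run on simulated data with planted changes of 1 and 2 log2 units, larger than most differences of members. That run says nothing on smaller changes. Plotting used Python 3.11.15 and matplotlib 3.10.9. Protein features were not analysed here.

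Members, lists and tests were chosen with earlier results of these data known. The text names members called in either fit, the 4 highest and 4 lowest in each chromosome group with 1 sign in all replicates, the 3 brightest in each, genes whose probe sets have opposite signs over 1 log2 unit apart, TRIM28 and SETDB1; others are said to have been named after their values were seen. No negative difference on chromosome 19 had 1 sign in all replicates. Alternatives were the replicate block, other pseudocounts and filters, quantile normalization, no trend, averaged probe sets, omission of _x_at and _s_at probe sets and each array or replicate left out.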

Additional observations from a re-analysis of the deposited data

How the results depend on the processing

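The number of arrays limits every value: the median standard error of a member's log2 difference was 0.393 on chromosome 19 and 0.347 elsewhere. Without a block, 0 members were called under every alternative run. With the replicate block 1 member probe set was called, on other chromosomes. With the block and without replicate 2, a setting added after the data were seen, 3 were called there, of ZNF207 and ZNF107. In that setting 2 genes of the co-repressor list were called as well, and the share of all tested probe sets called is not given here. Without replicate 1 or replicate 3 the block called 0. The block changed no other member's call. The median of chromosome 19 members was 0.13 over the 14 genes left by a stricter filter, 0.12 without _x_at and _s_at probe sets, 0.48 with or without the block when replicate 2 was left out, and 0.16 to 0.48 when any array or replicate was left out, lowest without untreated array 3. Without ZNF112, a choice made after the data were seen, it was 0.25. It was 0.19 to 0.35 under the other pseudocounts and 0.21 without the filter, over all 37 genes, while the median on other chromosomes was 0.00. That median was -0.08 without replicate 1 and -0.11 without _x_at and _s_at probe sets. ZNF91 ranged from -0.08 to 0.66, ZNF146 from -0.16 to 0.17 and ZNF174 from -0.74 to 0.12 as arrays or replicates were left out; with the block they were -0.08 without replicate 3 (ZNF91), -0.01 without replicate 2 (ZNF146), and 0.00 and 0.12 without replicates 2 and 3 (ZNF174). The cause was not tested. Of 157 values of 17 named members under alternatives that kept all arrays, 156 kept their direction and their side of the threshold, the exception being ZNF207 with the block. Of 204 values with an array or replicate left out, 192 did so, 11 changed sign and 1 passed the threshold, ZNF207 with the block and without replicate 2.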
